A study of Mus musculus with 16 samples.

Results

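Integrins and laminins were followed at the transcript level in sorted mouse muscle cells. The members were all genes in the deposited expression files whose symbol begins with Itga, Itgb, Lama, Lamb or Lamc and continues with a number and at most 1 letter. This gave 32 genes of the 24341 listed, of which 21 encode integrin subunits and 11 encode laminin chains. Of these, 26 (16 integrin and 10 laminin genes) reached 1 FPKM in at least 2 libraries and entered the tests. Itga2, Itga4, Itgb2, Itgb2l, Itgb3 and Lama1 did not. Itgav, the alphaV subunit, carries no number in its symbol and lies outside the rule.

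Integrins are cell surface receptors made of 1 alpha and 1 beta subunit that tie the cytoskeleton to the extracellular matrix. Laminins are trimers of an alpha, a beta and a gamma chain, and they form the sheet of the basement membrane around each muscle fibre and its satellite cells, the stem cells of skeletal muscle. In this niche the alpha7 and beta1 subunits bind laminins that carry the alpha2 chain, and loss of either the alpha2 chain or the alpha7 subunit causes muscular dystrophy in mice and humans.

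RNA was measured in 16 libraries of 6 groups. With no suffix there were 3 p53WT and 3 p53KO libraries, with 3dai another 3 of each genotype (p53WT_3dai and p53KO_3dai) and with G2 another 2 of each (p53WT_G2 and p53KO_G2). The labels do not spell out these suffixes. All mice were of the C57BL/6 strain and 2 to 3 months of age, and the cells of all groups were sorted for CD34 and alpha-7 integrin and against CD31, CD11b, CD45 and Sca-1. The genotype was p53 WT or p53KO, and the labels do not say how or in which cells the gene was removed. The 3dai cells came from the tibialis anterior and all others from hind limb muscles, so that suffix and muscle cannot be told apart wherever 3dai is compared with another group. Nothing in the labels says that replicates came from separate animals, and the p-values reflect no more than the spread among these libraries, which may be technical.

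The values are FPKM, a count of fragments scaled by transcript length and by library size, so that levels of different genes can be set side by side. Sums of FPKM ran from 423303 to 616485 per library, 10240 to 11574 genes reached 1 FPKM, and sequencing depth is unknown because the files give no counts. Trp53, the gene named by the genotype, had less transcript in the p53KO libraries at each suffix, with no overlap between genotypes. It was still detected there, at 6.34, 12.2 and 7.165 FPKM in p53KO beside 39.95, 53.9 and 48.1 in p53WT. In 3dai Trp53 read 41.3, 45.7 and 34.9 in p53KO_3dai beside 133.6, 135.3 and 160.8 in p53WT_3dai. In G2 it read 16.75 and 19.8 in p53KO_G2 beside 71.0 and 59.85 in p53WT_G2. Pax7, the defining transcription factor of satellite cells, was detected in all libraries, at 43.1, 9.33 and 26.1 FPKM in p53WT, 27.7, 28.2 and 97.0 in p53KO, 8.18, 6.67 and 5.45 in p53WT_3dai, 5.22, 10.5 and 10.8 in p53KO_3dai, 17.6 and 17.9 in p53WT_G2 and 13.1 and 22.0 in p53KO_G2. Itgam, which encodes CD11b, the alpha subunit used for the negative sort, reached at most 0.286 FPKM in any library. Of the other negative sort markers, Ly6a (Sca-1) reached 6.60 FPKM in p53KO_3dai replicate 2 and Pecam1 (CD31) 2.09 in p53WT replicate 2. Differences were computed on log2(FPKM + 1), a scale that compresses the changes of weakly expressed genes. A gene is said to have risen or fallen where its Benjamini-Hochberg adjusted p from limma, over all 12954 genes tested, was below 0.05. Comparisons that use the same group share its libraries and are not independent. In RNA from bulk sorted cells, fewer cells of a type and less RNA per cell cannot be told apart.

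Levels of the 32 genes spread widely. In the groups with no suffix the most abundant was Itgb1, which encodes the beta1 subunit shared by all laminin-binding and collagen-binding alpha subunits of the list. It read 223, 330.4 and 259 FPKM in p53WT and 267, 282 and 208 in p53KO, and the genotypes overlapped. Itga7, whose product was a positive sort marker, followed with 87.3, 92.3 and 90.5 in p53WT and 89.8, 86.3 and 81.1 in p53KO. Among laminin chains Lamc1, the most widely expressed gamma chain, stood highest with 84.2 ± 13.6 FPKM in p53WT and 89.2 ± 4.26 in p53KO (mean ± SD, n = 3). It was followed by Lamb2, the beta chain concentrated at the neuromuscular synapse, with 62.7 ± 14.5 and 57.2 ± 7.68, and by Lama2, the main alpha chain of the adult fibre, with 43.4 ± 10.7 and 51.9 ± 9.24. The SD ranges of Lamb2 and Lama2 overlapped in each genotype. Of the 32 genes 13 had a mean under 5 FPKM in every group. The 6 untested members were near the floor in all libraries, with highest values of 0.835 FPKM for Itga2 (collagen receptor), 0.932 for Itga4 (receptor for VCAM-1 and fibronectin), 0.197 for Itgb2 (leukocyte beta2), 1.10 for Itgb2l (a relative of Itgb2), 1.20 for Itgb3 (beta3 of platelets and of alphaV pairs) and 0.121 for Lama1. The files give Itga4 a locus longer than the RefSeq gene, and whether its FPKM includes reads of a neighbouring locus was not tested.

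**Figure D1:**
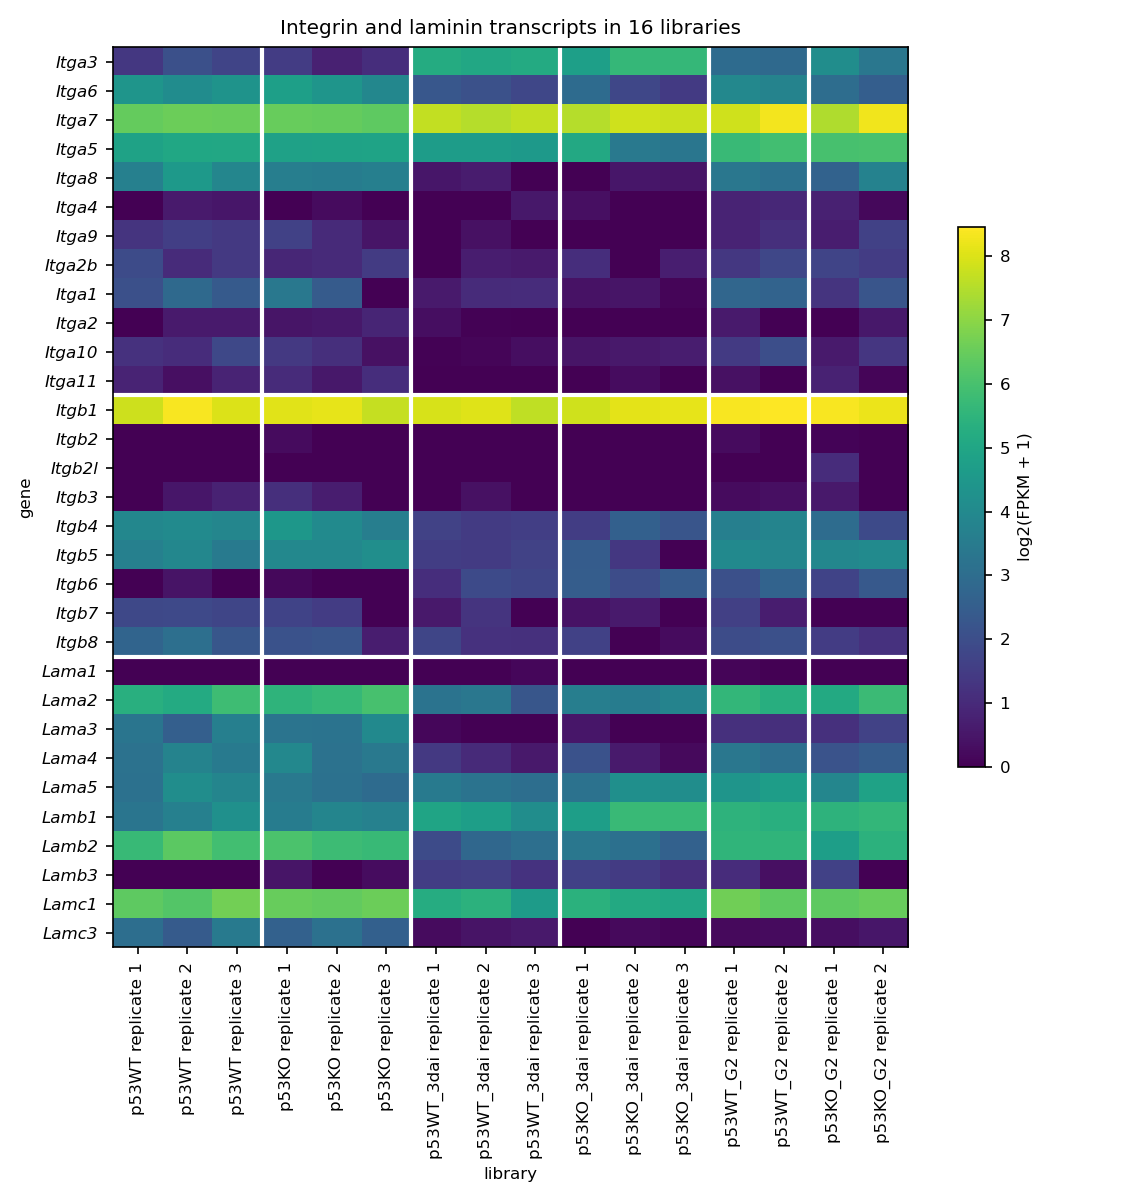
Heat map of log2(FPKM + 1) for 31 integrin and laminin genes (vertical axis, by alpha subunits, beta subunits and laminin chains) in the 16 libraries (horizontal axis, by group). White lines separate gene classes and groups. Itgb1 and Itga7 are bright in all libraries, and the 3dai columns are dark for Itga8, Lama3 and Lamc3 and bright for Itga3.

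Between 3dai and no suffix most of the members changed, and more of them fell than rose. In p53WT 5 members rose and 17 fell of 26 tested, against 31.8% of all genes called higher and 20.9% called lower, or 52.7% in either direction. In p53KO 5 rose and 15 fell, against 30.4%, 22.7% and 53.1%. The groups did not overlap for 23 members in p53WT and 18 in p53KO, beside 59.7% and 58.7% of all genes. The median log2 difference of the 26 members was -1.29 in p53WT and -1.04 in p53KO, beside 0.23 and 0.14 over all genes tested. Median-of-ratios scaling moved the medians over all genes to -0.07 and -0.10, so that differences between 3dai and no suffix depend on the scaling. A single gene can move by more than the median did, as Itgb1 and Lamb1 did in p53WT (values below). The 3 integrin genes that rose were Itga3, Itga7 and Itgb6 in each genotype, and the laminin genes were Lamb1 and Lamb3.

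Among the laminin-binding alpha subunits, Itga3 rose, Itga6 fell and Itga7 rose. Itga3 encodes the alpha3 subunit, a receptor for laminins with the alpha3 and alpha5 chains that is best known from epithelia. It read 1.61, 3.20 and 2.31 FPKM in p53WT and 1.84, 0.729 and 1.13 in p53KO, against 35.6, 32.6 and 34.9 in p53WT_3dai and 26.1, 48.4 and 48.5 in p53KO_3dai. All 6 of the 3dai libraries lay far above all 6 libraries with no suffix. The log2 difference was 3.42 (SE 0.30, adjusted p = 2.93e-07) in p53WT and 4.21 (SE 0.30, adjusted p = 3.19e-08) in p53KO, the largest rise of any member in each genotype. Itga6, a laminin receptor subunit that pairs with beta1 or beta4, read 20.2, 16.3 and 19.3 FPKM in p53WT and 26.6, 20.4 and 14.2 in p53KO against 3.94, 3.30 and 2.48 FPKM in p53WT_3dai and 6.67, 2.48 and 1.74 in p53KO_3dai. Every 3dai library lay below every library with no suffix, and the log2 difference was -2.22 (SE 0.35, adjusted p = 6.97e-05) in p53WT and -2.31 (SE 0.35, adjusted p = 4.67e-05) in p53KO. The files give Itga6 a locus longer than the RefSeq gene (514599 against 71542 bases). The loci of Itga7, Itga8 and Itgb4 also exceed RefSeq, by less. Whether the FPKM of these genes includes reads of a neighbouring locus was not tested. Itga7 rose from the values above to 201, 183 and 205 FPKM in p53WT_3dai and 181, 226 and 216 in p53KO_3dai. Its groups did not overlap, with log2 differences of 1.12 (SE 0.19, adjusted p = 1.71e-04) and 1.26 (SE 0.19, adjusted p = 5.46e-05). Cells were gated on the protein that this gene encodes, and the part of the gate in the difference was not tested.

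Of the tested alpha subunits that bind the RGD motif of fibronectin and related proteins, Itga8 fell in both genotypes, Itga5 in p53KO and the platelet subunit Itga2b in p53WT. Itga8, a receptor for nephronectin, read 11.9, 22.3 and 13.7 FPKM in p53WT and 11.4, 10.6 and 11.6 in p53KO, against 0.421, 0.549 and 0 FPKM in p53WT_3dai and 0, 0.430 and 0.378 in p53KO_3dai. All 3dai libraries were below 1 FPKM, and the log2 difference of -3.66 (SE 0.33, adjusted p = 3.54e-07) in p53WT and -3.28 (SE 0.33, adjusted p = 9.89e-07) in p53KO was the largest fall of any integrin gene. Itga5, the main fibronectin receptor subunit, read 27.9, 32.1 and 32.8 FPKM in p53WT and 27.9, 28.3 and 28.6 in p53KO against 24.4, 24.7 and 22.7 FPKM in p53WT_3dai and 33.2, 9.65 and 8.88 in p53KO_3dai. In p53KO_3dai replicate 1 lay above all 3 p53KO libraries while replicates 2 and 3 lay far below them. The log2 difference was -0.36 (SE 0.33, adjusted p = 0.390) in p53WT, which did not pass, and -0.93 (SE 0.33, adjusted p = 0.0273) in p53KO, which did. The p53KO call was lost on leaving out any 1 of 5 libraries, with adjusted p from 0.0564 (without p53KO replicate 3) to 0.147 (without p53KO_3dai replicate 3), and with p53KO_3dai replicates 2 and 3 both left out the difference was 0.22.

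The collagen-binding subunits were low throughout. Itga1, the alpha1 subunit, read 3.22, 6.33 and 4.29 FPKM in p53WT and 9.42, 4.42 and 0 in p53KO, of which the 0 in p53KO replicate 3 is a listed value and not taken as absence. In 3dai it read 0.527, 1.06 and 1.12 FPKM in p53WT_3dai and 0.332, 0.387 and 0.0803 in p53KO_3dai. The p53WT groups did not overlap, and the differences of -1.54 (SE 0.61, adjusted p = 0.0439) and -1.61 (SE 0.61, adjusted p = 0.0358) passed. The p53WT call was lost when any 1 of its 6 libraries was left out (adjusted p 0.0528 to 0.129), and the p53KO call when any but p53KO replicate 3 was (0.0609 to 0.209). Itga10 fell in p53WT (log2 difference -1.20, SE 0.34, adjusted p = 0.00765) and Itga11 in p53KO (-0.80, SE 0.29, adjusted p = 0.0287), and both stayed under 4 FPKM in every library. The Itga11 call was lost without p53KO_3dai replicate 1 (adjusted p = 0.0728) or 3 (0.0822) and with only the groups compared (0.0598), and the gene was no longer tested without p53KO replicate 1 or 3. Itga11 reached 1 FPKM only in those p53KO libraries (1.065 and 1.142). It thus entered the test through the group in which it was then found higher, and its call has no weight of its own. The 15 falls counted in p53KO include it. Itga9, a receptor for tenascin-C, fell in both genotypes, with log2 differences of -1.29 (SE 0.33, adjusted p = 0.00433) and -1.03 (SE 0.33, adjusted p = 0.0166), the latter lost without p53KO replicate 1 (adjusted p = 0.0973). Itga9 was listed at 0 in all 3 p53KO_3dai libraries, so that difference depends on the pseudocount and no fold is given.

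Itgb1 was not called in 3dai while Itgb4 and Itgb5 fell in both genotypes and Itgb6 rose. Its FPKM was 247, 263 and 198 in p53WT_3dai and 227, 277 and 278 in p53KO_3dai, within the range of the libraries with no suffix in p53WT apart from p53WT_3dai replicate 3. Neither difference passed (-0.19, SE 0.18, adjusted p = 0.400 in p53WT and 0.05, SE 0.18, adjusted p = 0.827 in p53KO). Under median-of-ratios scaling the p53WT difference passed as a fall (-0.60, adjusted p = 0.0130), and the p53KO difference was -0.28. Itgb4, the partner of alpha6 in hemidesmosomes, fell from 14.2, 15.4 and 13.6 FPKM in p53WT to 2.17, 1.75 and 1.94 in p53WT_3dai. In p53KO it went from 21.0, 15.4 and 11.1 to 1.88, 5.04 and 3.67. No 3dai library reached the lowest library with no suffix, and the differences were -2.38 (SE 0.33, adjusted p = 2.42e-05) and -1.92 (SE 0.33, adjusted p = 1.78e-04). Itgb5, a partner of alphaV in vitronectin binding, fell with log2 differences of -2.13 (SE 0.43, adjusted p = 6.24e-04) and -2.75 (SE 0.43, adjusted p = 6.69e-05), from 12.0 ± 1.91 to 1.95 ± 0.230 FPKM in p53WT and from 15.3 ± 1.65 to 2.04 ± 2.31 in p53KO (mean ± SD, n = 3).

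Itgb6, a partner of alphaV that activates latent TGF-beta in epithelia, rose in both genotypes. It read 0, 0.353 and 0 FPKM in p53WT and 0.121, 0 and 0 in p53KO, against 1.16, 2.75 and 2.42 FPKM in p53WT_3dai and 4.67, 2.89 and 4.33 in p53KO_3dai. All 3dai libraries exceeded 1 FPKM and none of those with no suffix did, and the differences were 1.45 (SE 0.32, adjusted p = 0.00141) and 2.24 (SE 0.32, adjusted p = 3.29e-05). Itgb8, another activator of latent TGF-beta with alphaV, fell in p53WT from 5.64, 7.51 and 3.82 to 2.38, 1.32 and 1.23 FPKM. Its difference of -1.32 (SE 0.47, adjusted p = 0.0267) missed the threshold without p53WT replicate 1 or 2 or without p53WT_3dai replicate 2 or 3 (adjusted p 0.0602 to 0.0930), and in p53KO it did not pass (-1.05). Itgb7, a leukocyte subunit, and Itga2b, the platelet alphaIIb subunit, fell in p53WT only by this test, from low values, and whether the genotypes differ in this was given no call (interaction adjusted p = 0.936 for Itgb7 and 0.909 for Itga2b). The Itgb7 call was lost without any 1 library other than p53WT_3dai replicate 2 (adjusted p 0.0594 to 0.133) and the Itga2b call without p53WT replicate 1 (0.107) or p53WT_3dai replicate 1 (0.105). With a pseudocount of 0.1 the calls of Itga1 in both genotypes and of Itgb7 and Itgb8 in p53WT were lost (adjusted p 0.0936 to 0.137). The alphaV subunit gene Itgav did not pass in any comparison and had 36.7, 44.8 and 43.8 FPKM in p53WT and 26.0, 24.9 and 21.0 in p53WT_3dai. It read 41.4, 43.2 and 9.08 FPKM in p53KO, where replicate 3 lay far below the others, and 28.0, 22.2 and 18.5 in p53KO_3dai.

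Of the 5 laminin alpha chain genes 3 fell, 1 did not pass and Lama1, an early embryonic chain, was not tested. Lama2 read 39.4, 35.2 and 55.5 FPKM in p53WT and 44.3, 49.4 and 62.2 in p53KO, against 8.24, 9.17 and 3.79 FPKM in p53WT_3dai and 11.2, 10.8 and 12.6 in p53KO_3dai. Every 3dai library was below every library with no suffix, with differences of -2.51 (SE 0.28, adjusted p = 2.52e-06) and -2.06 (SE 0.28, adjusted p = 1.72e-05). Lama3, the alpha chain of the epithelial anchoring laminin, read 8.83, 4.83 and 11.7 FPKM in p53WT and 8.47, 8.31 and 15.3 in p53KO against 0.118, 0 and 0 FPKM in p53WT_3dai and 0.428, 0 and 0 in p53KO_3dai. It was listed at 0 in 4 of the 6 libraries of 3dai, and its log2 differences were -3.11 (SE 0.34, adjusted p = 2.15e-06) and -3.32 (SE 0.34, adjusted p = 1.10e-06). Lama4, a chain of vessel walls and peripheral nerve, fell from 10.2 ± 2.28 to 1.05 ± 0.567 FPKM in p53WT and from 10.8 ± 3.27 to 1.37 ± 1.78 in p53KO, with log2 differences of -2.48 (SE 0.42, adjusted p = 1.57e-04) and -2.53 (SE 0.42, adjusted p = 1.27e-04). Lama5, a widespread chain that binds alpha3 and alpha6 integrins, did not pass in either genotype. It read 7.93, 16.5 and 13.5 FPKM in p53WT, 9.74, 7.83 and 6.72 in p53KO, 10.3, 8.24 and 7.23 in p53WT_3dai and 8.15, 17.3 and 16.5 in p53KO_3dai. Here p53KO_3dai replicate 1 lay within the range of p53KO and replicates 2 and 3 above it, and the differences were -0.47 (SE 0.33, adjusted p = 0.258) and 0.67 (SE 0.33, adjusted p = 0.106).

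Among the laminin beta chains Lamb2 fell, and Lamb1 and Lamb3 rose. Lamb2 read 50.3, 78.7 and 59.0 FPKM in p53WT and 65.9, 54.4 and 51.3 in p53KO, against 2.81, 6.13 and 7.41 FPKM in p53WT_3dai and 9.24, 7.73 and 5.20 in p53KO_3dai. No 3dai library came near the lowest library with no suffix, and the log2 differences of -3.36 (SE 0.30, adjusted p = 2.79e-07) and -2.82 (SE 0.30, adjusted p = 1.52e-06) were among the largest falls of the laminins. Lamb1, the beta chain of most laminins outside the synapse, read 8.69, 11.9 and 18.0 FPKM in p53WT and 10.8, 13.3 and 12.2 in p53KO, against 29.7, 25.6 and 16.6 FPKM in p53WT_3dai and 25.7, 52.2 and 51.0 in p53KO_3dai. The p53KO groups were apart, while p53WT_3dai replicate 3 lay below p53WT replicate 3. The rise was 0.87 (SE 0.30, adjusted p = 0.0226) in p53WT and 1.69 (SE 0.30, adjusted p = 2.07e-04) in p53KO. The p53WT call was lost under median-of-ratios scaling (0.48, adjusted p = 0.210) and without p53WT replicate 1 (0.64, 0.109), p53WT replicate 2 (0.84, 0.0546), p53WT_3dai replicate 1 (0.70, 0.0972) or p53WT_3dai replicate 2 (0.80, 0.0674). Lamb3, a partner of Lama3 in the epithelial laminin, was listed at 0 in all p53WT libraries and read 1.92, 2.04 and 1.35 FPKM in p53WT_3dai. It read 0.378, 0 and 0.223 in p53KO and 2.11, 1.77 and 1.19 in p53KO_3dai, so the groups did not overlap in either genotype. With p53WT listed at 0, the size of that difference depends on the pseudocount. Its adjusted p was 0.00398 in p53WT and 0.0162 in p53KO, the latter lost without p53KO replicate 2 (0.0601) or p53KO_3dai replicate 1 (0.0518).

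The gamma chain genes Lamc1 and Lamc3 fell in both genotypes. Lamc1 read 80.8, 72.7 and 99.2 FPKM in p53WT and 88.9, 85.2 and 93.7 in p53KO, against 36.2, 42.4 and 24.2 FPKM in p53WT_3dai and 40.8, 34.5 and 31.1 in p53KO_3dai. The ranges were far apart, and the differences were -1.30 (SE 0.20, adjusted p = 6.39e-05) and -1.31 (SE 0.20, adjusted p = 5.62e-05). Lamc3, the gamma3 chain, went from 7.30, 4.37 and 9.93 FPKM in p53WT and 5.15, 7.83 and 5.01 in p53KO to 0.195, 0.369 and 0.487 FPKM in p53WT_3dai and 0, 0.156 and 0.0957 in p53KO_3dai. Its log2 differences were -2.55 (SE 0.30, adjusted p = 4.86e-06) and -2.67 (SE 0.30, adjusted p = 3.01e-06), and no 3dai library reached 1 FPKM. Lamc3 reached 1 FPKM only in libraries with no suffix. It thus entered the test through the groups in which it was then found higher, and its calls have no weight of their own. The falls counted in each genotype include it.

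**Figure D2:**
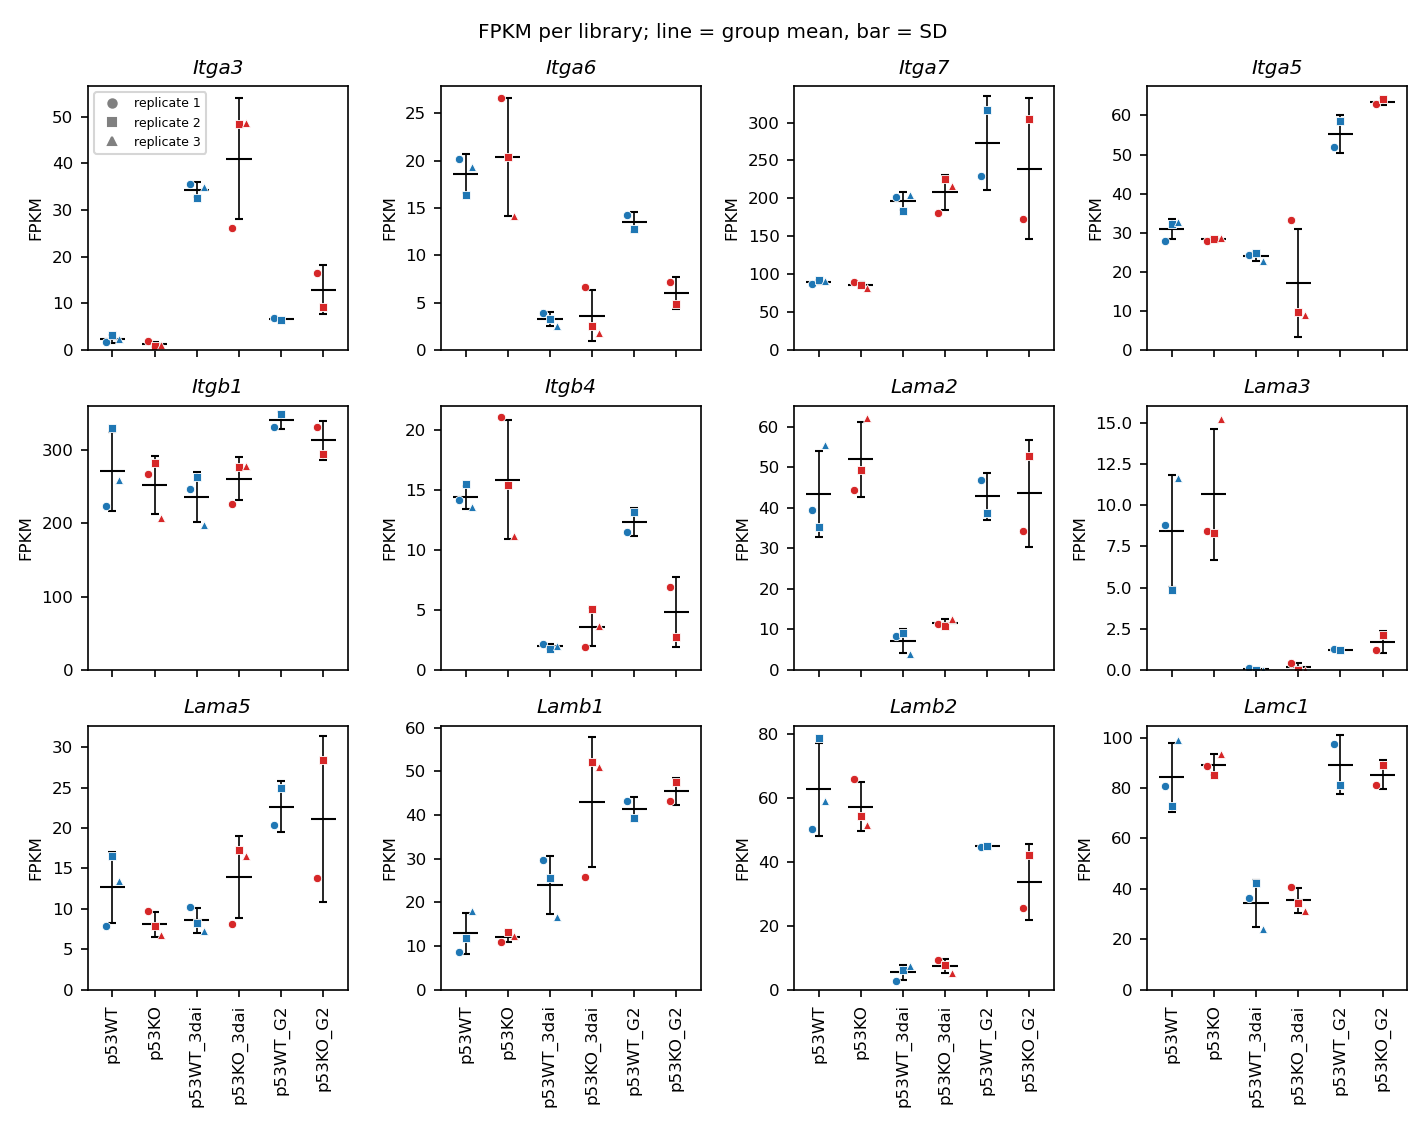
FPKM (vertical axis, linear from 0) of 12 integrin and laminin genes in the 6 groups (horizontal axis). Points are libraries with the replicate number as shape, horizontal lines are group means and bars are SD. Lamb2, Lama2 and Lama3 drop in 3dai and Itga3 is highest there, while p53KO_3dai replicate 1 lies apart from replicates 2 and 3 for Itga5, Itga3 and Lamb1.

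Markers of several other cell types moved with these groups. Of all genes tested, 20.9% were called lower in 3dai in p53WT and 22.7% in p53KO. Of the pericyte list 9 of 10 genes fell in 3dai against no suffix in each genotype, and the summed FPKM of the list was 379 to 988 in p53WT, 382 to 569 in p53KO, 25.5 to 42.0 in p53WT_3dai and 19.6 to 53.6 in p53KO_3dai. Of the Schwann cell list 12 of 12 genes fell in p53WT and 11 in p53KO, with sums of 711 to 781, 627 to 682, 24.8 to 40.9 and 21.5 to 69.3 in the same order. The sums for fibro-adipogenic progenitors (FAP) were 1353 to 1497, 1366 to 1661, 121 to 136 and 101 to 165, with 8 of 10 genes lower in p53WT and 7 in p53KO. Each of these sums was lower in every 3dai library than in every library with no suffix. For tenocytes the sums were 245 to 469.5, 275 to 419, 38.7 to 85.8 and 36.0 to 73.1, with 9 and 8 of 10 lower and Scx higher. The 9 endothelial genes tested included 4 that fell and 1 that rose in p53WT and 3 that fell in p53KO, and their sums were 26.9 to 40.9, 27.9 to 37.1, 3.12 to 6.67 and 0.281 to 3.91. The satellite cell list fell as well, in 7 of 9 genes in each genotype, from sums of 2936 to 3440 and 2793 to 3173 to 561 to 612 and 511 to 572. Macrophage markers summed to 8.78 to 27.3, 4.73 to 18.4, 2.92 to 5.58 and 2.87 to 9.95, and of the 3 tested Cd14 fell in both genotypes. Cd14 reached 13.8, Lyz2 14.6 and Cd68 8.18 FPKM, while Csf1r, Ctss and Aif1 were at 0 in all libraries. Of the platelet markers Gp9 and Gp1ba were at 0 in all libraries and Pf4 read 8.34 FPKM in p53WT replicate 1, and none of the 3 tested was called. The epithelial marker Krt14 was at 0 in all libraries. Of 5 epithelial genes tested, 2 rose (Krt8 and Krt18) and 2 fell (Krt19 and Cdh1) in p53WT, and 3 rose and Cdh1 fell in p53KO, and the summed FPKM of the epithelial list was 6.60 to 10.7, 2.03 to 8.10, 15.6 to 45.7 and 17.6 to 29.5. Of 12 mature fibre genes tested, 2 rose and 1 fell in p53WT, and 1 rose and 3 fell in p53KO. The mature fibre sums overlapped, at 74.9 to 148.5 in p53WT, 110.5 to 147 in p53KO, 81.7 to 169 in p53WT_3dai and 122 to 151 in p53KO_3dai. The part of these lists in the differences of Lama4, Lamc3, Itga8, Itga6 and the other members was not tested.

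The shift between the beta chains can be written as a share of the summed FPKM of Lamb1, Lamb2 and Lamb3. Lamb1 made up 14.7, 13.1 and 23.4% in p53WT, 14.0, 19.6 and 19.1% in p53KO, 86.3, 75.8 and 65.5% in p53WT_3dai, 69.4, 84.6 and 88.9% in p53KO_3dai, 48.6 and 46.7% in p53WT_G2 and 61.1 and 53% in p53KO_G2. The 3 suffixes did not overlap with each other in either genotype. A share within a library does not depend on the scaling of that library. Lama5 made up 17% ± 6.07 of the alpha chains in p53WT and 52.5% ± 8.87 in p53WT_3dai, and Lama2 57.8% ± 5.98 and 41.0% ± 8.57 (mean ± SD, n = 3). Of the summed FPKM of Itga3, Itga6 and Itga7, Itga7 held 75.9% to 95.6% in all libraries. Itga6 exceeded Itga3 in every library with no suffix, at 14.6% to 22.5% against 0.678% to 2.86%. Itga3 exceeded Itga6 in all 6 of the 3dai libraries, at 12.2% to 18.2% against 0.651% to 3.12%.

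**Figure D3:**
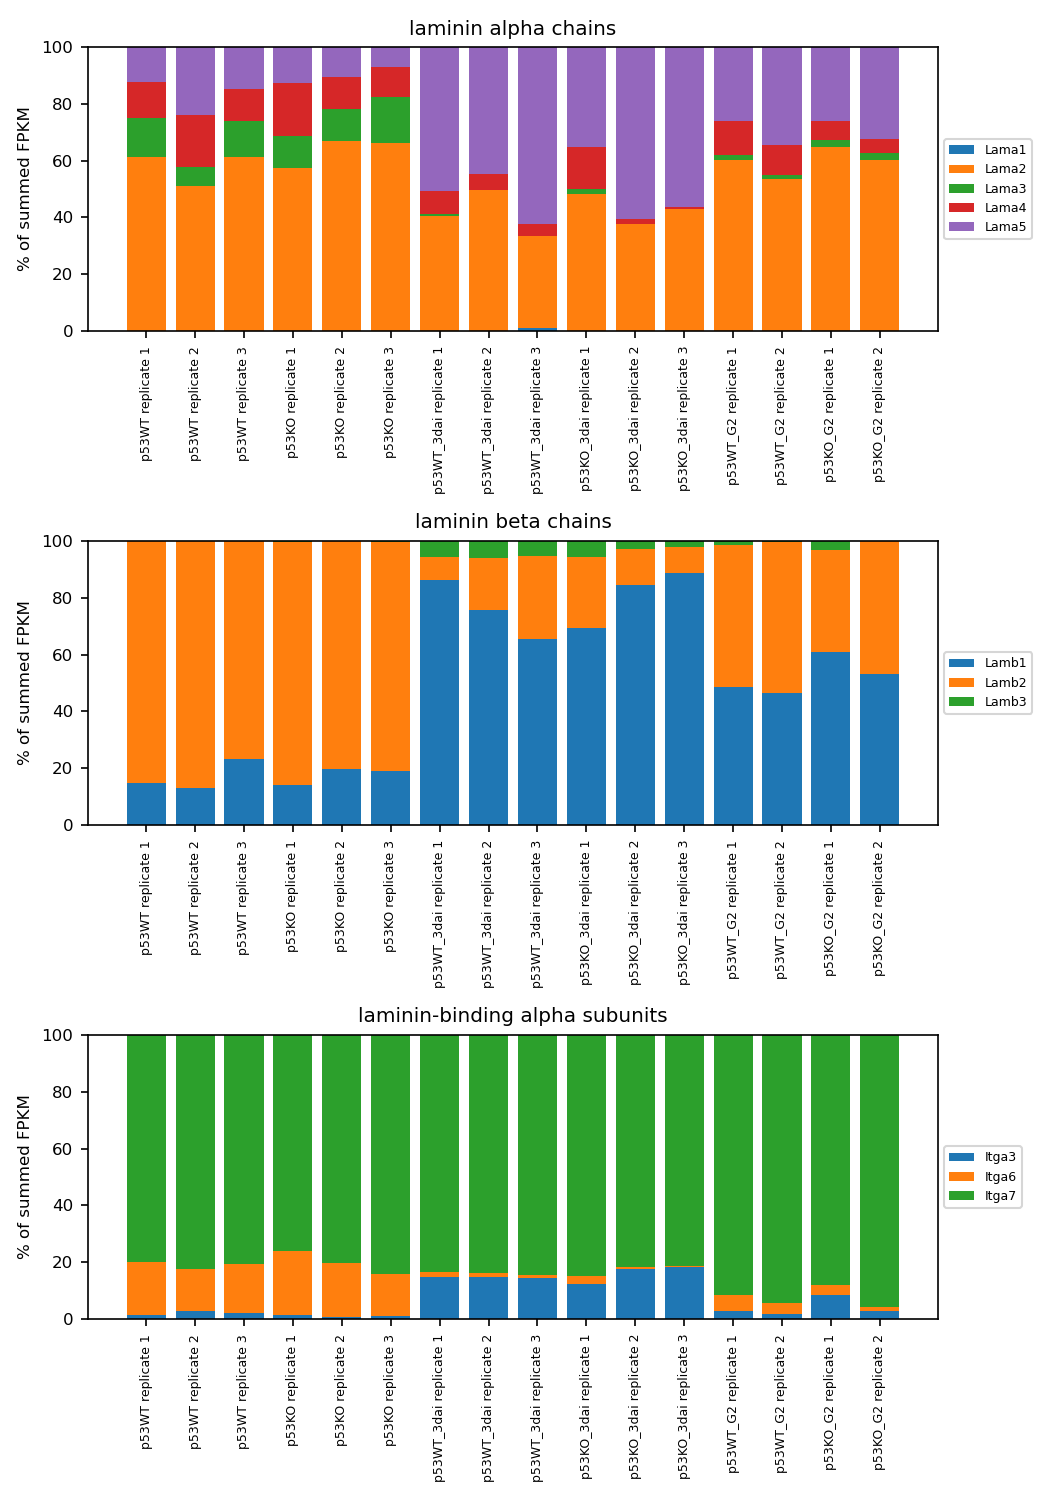
Share of summed FPKM (vertical axis, %) held by each laminin alpha and beta chain and by the laminin-binding alpha subunits Itga3, Itga6 and Itga7 in each library (horizontal axis). Each bar is 1 library and sums to 100%. The Lamb1 share is 13.1% to 23.4% with no suffix, 65.5% to 88.9% in 3dai and 46.7% to 61.1% in G2.

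Promoter sequences are shown for the pair of beta chains that moved in opposite directions and for Itga3, the largest rise. Each is the 100 bases directly before the outermost start of the gene in RefSeq and in GENCODE vM21, so that no annotated exon of the gene is included. They were read from RefSeq on GRCm38.p6 and are written 5′ to 3′ on the strand of the gene. They lie at chr12:31265046-31265145 (plus strand) for Lamb1, chr9:108479636-108479735 (plus strand) for Lamb2 and chr11:95076845-95076944 (minus strand) for Itga3. Capitals mark every match, on either strand, to the E-box CANNTG, the AP-1 site TGANTCA, the TEAD site GGAATG and the GC box GGGCGG.
Lamb1: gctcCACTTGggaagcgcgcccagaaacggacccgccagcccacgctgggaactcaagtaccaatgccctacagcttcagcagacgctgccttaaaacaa
Itga3: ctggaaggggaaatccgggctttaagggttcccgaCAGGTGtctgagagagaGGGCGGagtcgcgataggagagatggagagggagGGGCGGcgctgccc
Lamb2: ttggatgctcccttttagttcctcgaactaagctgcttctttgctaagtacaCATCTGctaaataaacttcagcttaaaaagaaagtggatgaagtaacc
The window of Lamb1 held 6 CpG dinucleotides at 59.0% G and C, that of Itga3 held 7 at 64.0% and that of Lamb2 held 1 at 38.0%, beside a median of 2 over the 21961 genes with such a window. A GC box was found at 2 positions in Itga3 and at none in the others, and 22.1% of all windows held at least 1. An E-box was present at 1 position in each of the 3 windows, and 35.9% of all windows held one. None of the 3 held the AP-1 or TEAD letters, found in 2.97% and 5.14% of all windows. A match is only a description of the letters in these windows, and 17 of the 32 members had such a window.

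In G2 against no suffix fewer members changed. In p53WT 4 rose and 2 fell of 26 tested, against 22.1% of all genes called higher and 5.39% lower, or 27.5% in all. In p53KO 6 rose and 4 fell, against 22.5%, 7.06% and 29.6%. The balance of directions depended on the scaling. Under median-of-ratios scaling 3 members were called higher and 4 lower in p53WT, beside 1642 and 1523 of 12998 genes, and 4 and 7 in p53KO, beside 1586 and 1639. The falls gained there included Itga8 in p53WT and Lama4 and Lamb2 in p53KO. The groups did not overlap for 18 members in p53WT and 15 in p53KO, beside 56.1% and 52.1% of all genes. The median log2 difference of the members was 0.05 in p53WT and -0.13 in p53KO, beside 0.33 and 0.31 over all genes, which median-of-ratios scaling moved to 0 and -0.03. Itga3, Itga7, Itgb6 and Lamb1 rose and Lama3 and Lamc3 fell in both genotypes, and each of these had moved in the same direction in 3dai. The 3dai and G2 comparisons use the same libraries with no suffix.

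Itga7 read 229 and 317 FPKM in p53WT_G2 and 173 and 305 in p53KO_G2, above every library with no suffix, and rose by 1.57 (SE 0.21, adjusted p = 8.21e-05) and 1.41 (SE 0.21, adjusted p = 1.93e-04). Itga3 read 6.74 and 6.44 FPKM in p53WT_G2 and 16.6 and 9.14 in p53KO_G2, between the groups with no suffix and in 3dai. Its rise was 1.20 (SE 0.34, adjusted p = 0.0161) in p53WT and 2.61 (SE 0.34, adjusted p = 5.31e-05) in p53KO. The p53WT call was lost under median-of-ratios scaling (0.86, adjusted p = 0.0905), without p53WT replicate 1 (0.0561) and without either p53WT_G2 library (0.0873 and 0.0853). Itgb6 read 3.15 and 5.52 FPKM in p53WT_G2 and 2.24 and 4.10 in p53KO_G2 and rose by 2.23 (SE 0.36, adjusted p = 3.35e-04) and 1.97 (SE 0.36, adjusted p = 8.88e-04). Lamb1 read 43.3 and 39.4 FPKM in p53WT_G2 and 43.2 and 47.6 in p53KO_G2, more than in any library with no suffix, and rose by 1.66 (SE 0.33, adjusted p = 0.00170) and 1.83 (SE 0.33, adjusted p = 8.23e-04).

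Lama3 and Lamc3 stayed low in G2. Lama3 read 1.27 and 1.18 FPKM in p53WT_G2 and 1.23 and 2.14 in p53KO_G2, with log2 differences of -2.01 (SE 0.38, adjusted p = 0.00115) and -2.09 (SE 0.38, adjusted p = 8.37e-04). Lamc3 read 0.165 and 0.182 FPKM in p53WT_G2 and 0.249 and 0.412 in p53KO_G2, with log2 differences of -2.75 (SE 0.34, adjusted p = 3.06e-05) and -2.37 (SE 0.34, adjusted p = 1.12e-04). All 4 of the G2 libraries lay below all 6 libraries with no suffix for both genes. Lamc3 entered the test only through the libraries with no suffix, so its calls in G2, which the counts include, have no weight of their own. In p53KO alone by this test Itga6 and Itgb4 fell and Itga5 and Lama5 rose. Itga6 read 14.2 and 12.8 FPKM in p53WT_G2 and 7.19 and 4.80 in p53KO_G2, and Itgb4 11.5 and 13.2 FPKM in p53WT_G2 and 6.86 and 2.73 in p53KO_G2. Their p53KO differences were -1.59 (SE 0.39, adjusted p = 0.00626) and -1.60 (SE 0.37, adjusted p = 0.00478), and without p53KO_G2 replicate 2 the adjusted p was 0.0600 for Itga6 and 0.0809 for Itgb4. The interaction of genotype and G2 was not called for either gene (adjusted p = 1 and 1), so a difference between the genotypes was not shown.

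Itga5 read 51.9 and 58.7 FPKM in p53WT_G2 and 62.8 and 64.2 in p53KO_G2, and all 4 libraries were above every library of the other suffixes. Its difference was 0.82 (SE 0.37, adjusted p = 0.117) in p53WT and 1.14 (SE 0.37, adjusted p = 0.0304) in p53KO. The p53KO call was lost under median-of-ratios scaling (0.72, adjusted p = 0.155) and without any 1 of its 5 libraries (0.0529 to 0.123). Lama5 read 20.4 and 24.9 FPKM in p53WT_G2 and 13.8 and 28.4 in p53KO_G2, and its difference was 0.84 (SE 0.37, adjusted p = 0.109) in p53WT and 1.21 (SE 0.37, adjusted p = 0.0233) in p53KO. The p53KO call was lost under median-of-ratios scaling (0.81, 0.136), without p53KO replicate 2 (0.0524) or 3 (0.0592), and without p53KO_G2 replicate 2 (0.72, 0.254). Lama2 at 46.9 and 38.6 FPKM in p53WT_G2 and 34.2 and 52.8 in p53KO_G2, Lamb2 at 44.7 and 44.8 FPKM in p53WT_G2 and 25.4 and 42.2 in p53KO_G2 and Lamc1 at 97.5 and 81.2 FPKM in p53WT_G2 and 81.1 and 89.3 in p53KO_G2 did not pass against no suffix in either genotype. Itgb1 read 332 and 349 FPKM in p53WT_G2 and 332 and 295 in p53KO_G2, with differences of 0.35 (SE 0.20, adjusted p = 0.224) and 0.32 (SE 0.20, adjusted p = 0.255) that turned to -0.08 and -0.11 under median-of-ratios scaling.

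**Figure D4:**
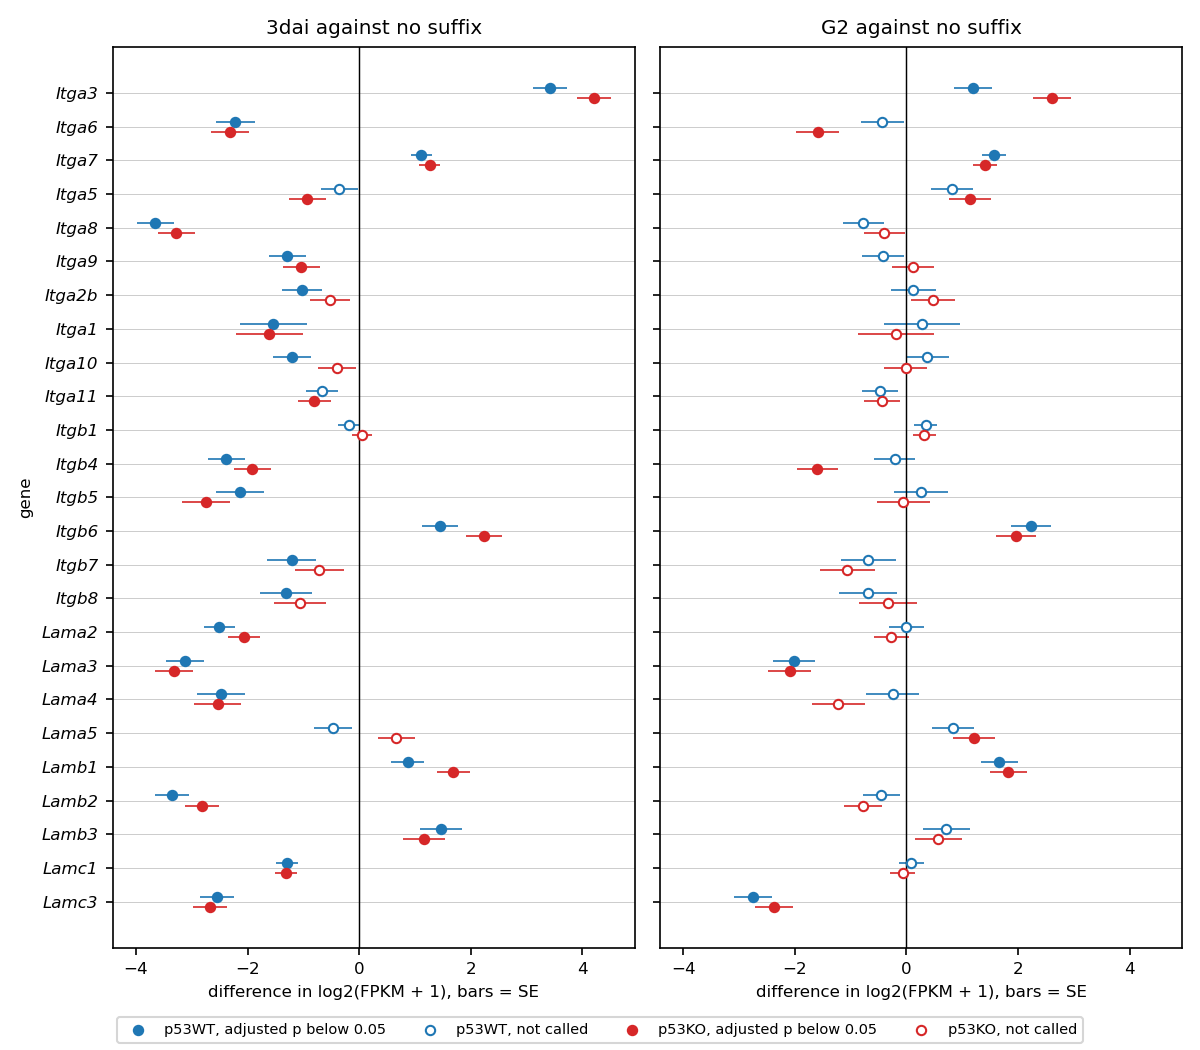
Difference in log2(FPKM + 1) between 3dai and no suffix (left) and between G2 and no suffix (right) for 25 of the genes tested (vertical axis), in p53WT (blue) and p53KO (red). Points are limma estimates, filled where the adjusted p was below 0.05, and bars are SE. Lamb2, Lama2 and Itga8 fall on the left and are not called on the right with the values as deposited (under median-of-ratios scaling Itga8 was called lower in p53WT_G2 and Lamb2 in p53KO_G2), while Itga3, Itga7, Itgb6 and Lamb1 are filled to the right of 0 in both panels.

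The Schwann cell, FAP and satellite cell marker sums in G2 lay between those of the other suffixes. The Schwann cell sum was 249 to 250 in p53WT_G2 and 206 to 242 in p53KO_G2, the FAP sum 817 to 818 and 718 to 786, the pericyte sum 656 to 759 and 352 to 626, and the endothelial sum 23.5 to 30.4 and 14.6 to 28.0. The tenocyte sum was 474 to 555 and 235 to 237, the satellite cell sum 816 to 848 and 711 to 898. Genes of mature muscle fibres were higher in G2, with 9 of 12 called higher in p53WT and 8 in p53KO against no suffix, beside 22.1% and 22.5% of all genes. Their sums were 701 to 1763 in p53WT_G2 and 520.1 to 1063 in p53KO_G2, beside 74.9 to 148.5 in p53WT and 110.5 to 147 in p53KO. The part of these lists in the member differences was not tested.

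Set directly against 3dai, more members were called higher than lower in G2. In p53WT 11 rose and 1 fell of 26 tested, against 13.9% of all genes called higher and 6.70% lower, or 20.6% in all. In p53KO 9 rose and 1 fell, against 16.1%, 7.10% and 23.2%. The groups did not overlap for 24 members in p53WT and 15 in p53KO, beside 53.8% and 48.9% of all genes. The members' median log2 difference was 1.13 in p53WT and 0.73 in p53KO, beside 0.09 and 0.12 over all genes. Lamb2 rose by 2.90 (SE 0.33, adjusted p = 3.80e-05) in p53WT and 2.04 (SE 0.33, adjusted p = 5.83e-04) in p53KO. Itga8, which read 9.25 and 7.99 FPKM in p53WT_G2 and 5.35 and 12.5 in p53KO_G2, rose by 2.88 (SE 0.37, adjusted p = 8.69e-05) and 2.88 (SE 0.37, adjusted p = 9.80e-05). Lama2 rose by 2.51 (SE 0.31, adjusted p = 6.94e-05) and 1.80 (SE 0.31, adjusted p = 9.10e-04), Itgb5 by 2.39 (SE 0.48, adjusted p = 0.00252) and 2.69 (SE 0.48, adjusted p = 0.00104), and Lamc1 by 1.39 (SE 0.22, adjusted p = 5.67e-04) and 1.25 (SE 0.22, adjusted p = 0.00113). Itga5 rose by 1.17 (SE 0.37, adjusted p = 0.0366) and 2.07 (SE 0.37, adjusted p = 0.00111), of which the p53WT call was lost without any 1 of its 5 libraries (adjusted p 0.0683 to 0.184).

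Itga3 was the 1 member called lower in G2 than in 3dai in each genotype, with log2 differences of -2.22 (SE 0.34, adjusted p = 3.86e-04) in p53WT and -1.60 (SE 0.34, adjusted p = 0.00372) in p53KO. The p53KO call was lost without p53KO_G2 replicate 2 (-1.20, adjusted p = 0.0706) and with p53KO_3dai replicates 2 and 3 both left out (-1.02, 0.200). Lama4, Itgb4 and Itga6 rose in p53WT, by 2.23 (SE 0.47, adjusted p = 0.00375), 2.17 (SE 0.37, adjusted p = 8.48e-04) and 1.79 (SE 0.39, adjusted p = 0.00437), as did Itga10 and Lama5. In p53KO Lama4, Itgb4 and Itga6 had differences of 1.31 (SE 0.47, adjusted p = 0.0568), 0.32 (SE 0.37, adjusted p = 0.573) and 0.72 (SE 0.39, adjusted p = 0.196) that did not pass. Lama3 and Itga9 rose in p53KO. The Itga10 call was lost without p53WT_G2 replicate 2 (adjusted p = 0.112). The Lama5 call was lost without p53WT_3dai replicate 2 or 3 or either p53WT_G2 library (0.0518 to 0.155). The Lama3 call was lost without p53KO_3dai replicate 2 or 3 or p53KO_G2 replicate 2 (0.0862 to 0.197), and the Itga9 call without any 1 library other than p53KO_G2 replicate 1 (0.0603 to 0.340). With p53KO_3dai replicates 2 and 3 both left out the p53KO count was 5 members in place of 10. Pericyte genes moved the same way, with 9 of 10 called higher in G2 than in 3dai in p53WT and 8 in p53KO, as did 9 and 8 of 12 Schwann cell genes. So did 10 and 8 of 12 mature fibre genes and 7 and 5 of 10 tenocyte genes. In each genotype 5 of 9 satellite cell, 5 of 10 FAP and 3 of 9 endothelial genes were called higher. Of 5 epithelial genes 2 were called lower in p53KO.

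The genotype had no called effect on any member. Of the 26 tested, 0 were called in p53KO against p53WT with no suffix (0.00772% of all genes), 0 in 3dai (0.0849%) and 0 in G2 (0.0695%) by limma. At an unadjusted p below 0.05 there were 1, 4 and 3 members, beside 512, 1151 and 631 of 12954 genes. The genotypes did not overlap for 4 members among the libraries without a suffix, for 6 in 3dai and for 12 in G2, where 6.73%, 12.0% and 31.2% of all genes did not overlap. A p that misses the threshold does not show that the genotypes were alike. The member with the smallest p with no suffix was Itgb8, which read 5.64, 7.51 and 3.82 FPKM in p53WT and 3.37, 3.71 and 0.587 in p53KO. All 3 p53KO libraries lay below p53WT, the lowest of them p53KO replicate 3, and the difference was -1.02 (SE 0.47, adjusted p = 1), from -1.30 to -0.51 with 1 library left out.

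In 3dai the differences of Lamb1, Itga3, Lama5 and Itga5 between genotypes depended on which p53KO_3dai libraries were used. Lama2 (0.71, SE 0.28, adjusted p = 0.426) did not overlap between genotypes, nor did Itgb6 (0.69, SE 0.32, adjusted p = 0.551), and Lamb1 (0.79, SE 0.30, adjusted p = 0.404) and Itga5 (-0.70, SE 0.33, adjusted p = 0.570) did. Replicate 1 of p53KO_3dai had Lamb1, Itga3 and Lama5 within or below the p53WT_3dai range and Itga5 above it, whereas replicates 2 and 3 had Lamb1, Itga3 and Lama5 above it and Itga5 below it. Without replicate 1, 3 members were called, among them Lamb1, which was higher (1.11, adjusted p = 0.0381), and Itga5, which was lower (-1.28, 4.79e-04), while 514 of 12919 genes (3.98%) were called. Array weights, which gave replicate 1 a weight of 0.401, also called 3 members, with 804 of 12954 genes called. The lowest weight of any library was the 0.302 of p53KO replicate 3, which has no suffix. With 1 library left out the differences ran from 0.37 to 0.91 for Lama2, 0.45 to 0.86 for Itgb6, 0.55 to 1.11 for Lamb1 and -1.28 to -0.38 for Itga5. The Schwann cell sum was 69.3 FPKM in replicate 1 and 25.0 and 21.5 in replicates 2 and 3, and the pericyte sum 53.6, 26.0 and 19.6. The part of these markers in the difference between the libraries was not tested.

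In G2 the lowest p values were those of Itgb4 (-1.30, SE 0.41, adjusted p = 0.703) and Itga6 (-1.07, SE 0.42, adjusted p = 0.923), which encode partner subunits. Both p53KO_G2 libraries lay below both p53WT_G2 libraries for each gene. Itga3 lay above them in both p53KO_G2 libraries (0.82, SE 0.37, adjusted p = 1). With 1 library left out these differences ran from -1.84 to -0.76 for Itgb4, -1.32 to -0.82 for Itga6 and 0.42 to 1.21 for Itga3. The tenocyte, pericyte, FAP and Schwann cell sums were also lower in both p53KO_G2 libraries than in both p53WT_G2 libraries. The endothelial, satellite cell, macrophage, mature fibre, platelet and epithelial sums overlapped. The part of these lists in the differences was not tested. The difference of genotype effects between 3dai and no suffix was called for 0 members (0% of all genes), with 1 member and 777 genes at an unadjusted p below 0.05. That between G2 and no suffix was called for 0 members (0.0232% of all genes), with 2 members and 564 genes. The first became 1 member, Itga5, without p53KO_3dai replicate 1, where 146 of 12919 genes (1.13%) were called.

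Genes of the wider adhesion pathway were counted over lists written with earlier results of these data known. The shares of all genes called were 31.8% higher and 20.9% lower in p53WT_3dai, 30.4% and 22.7% in p53KO_3dai, 22.1% and 5.39% in p53WT_G2 and 22.5% and 7.06% in p53KO_G2, each against no suffix. Of 16 tested partners of laminin in the basement membrane none rose and 13 fell in p53WT_3dai against p53WT, and 11 fell in p53KO, with median log2 differences of -2.06 and -1.95 beside 0.23 and 0.14 over all genes. The largest falls were those of Col15a1, a collagen that bridges the basement membrane to the interstitial matrix (-4.62, SE 0.35, adjusted p = 5.07e-08 and -5.18, SE 0.35, adjusted p = 1.50e-08), and Col4a1, a chain of the collagen IV network (-4.50, SE 0.34, adjusted p = 5.90e-08 and -4.31, SE 0.34, adjusted p = 8.45e-08). In G2 against no suffix 3 rose and 2 fell in p53WT and 3 rose and 4 fell in p53KO. Against 3dai 13 of 16 were higher in G2 in each genotype, where 13.9% of all genes were in p53WT and 16.1% in p53KO.

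Of 22 tested integrin ligands outside the laminins 3 rose and 14 fell in 3dai in each genotype, with a median log2 difference of -1.03 in each. The rises were led by Spp1, which encodes osteopontin (5.01, SE 0.27, adjusted p = 1.91e-09 and 5.22, SE 0.27, adjusted p = 1.37e-09), and Npnt, which encodes nephronectin, the ligand of the alpha8 subunit (3.10, SE 0.29, adjusted p = 4.06e-07 and 3.73, SE 0.29, adjusted p = 5.65e-08). The largest falls were those of Ctgf (-6.29 and -7.39) and Vtn, which encodes vitronectin (-5.90 and -5.76). Ctgf read 47.55, 0.939 and 0.211 FPKM in p53KO_3dai, and its p53KO difference ran from -9.055 to -6.392 with 1 library left out. Vtn read 0, 0 and 0.924 FPKM in p53WT_3dai and 0.746, 0.326 and 0 in p53KO_3dai, so the size of its fall depends on the pseudocount. Npnt rose in the same comparison in which its receptor gene Itga8 fell. In G2 against no suffix 6 ligands rose and 4 fell in p53WT, and 7 and 4 in p53KO.

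Laminin receptors outside the integrin family were split in 3dai. Of 11 tested 6 rose and 3 fell in p53WT_3dai against p53WT, and 5 and 4 in p53KO, with median log2 differences of 0.63 and 0.35. In G2 against no suffix 6 rose and 1 fell in p53WT, and 7 and 1 in p53KO. The values that follow are for 3dai against no suffix unless G2 is named. Lgals3 and Lgals1, galectins that bind laminin glycans, rose by 5.24 (SE 0.24, adjusted p = 5.10e-10) and 4.26 (SE 0.27, adjusted p = 7.88e-09) in p53WT. Sdc4, a syndecan of satellite cells, and Bcam, a receptor for the alpha5 chain, fell with log2 differences of -3.42 (SE 0.21, adjusted p = 5.53e-09) and -2.79 (SE 0.44, adjusted p = 8.13e-05). Dag1, which encodes dystroglycan, the other main laminin receptor of the fibre, did not pass in p53WT (-0.04, SE 0.26, adjusted p = 0.910) and fell in p53KO (-0.81, SE 0.26, adjusted p = 0.0162). It read 123.2, 106.1 and 250.9 FPKM in p53KO and 82.4, 94.1 and 77.7 in p53KO_3dai. In p53WT Dag1 read 116.1, 71.4 and 104.5 FPKM, beside 273.2 and 279.9 in p53WT_G2 and 215.7 and 266.4 in p53KO_G2. The p53KO call of Dag1 in 3dai was lost without p53KO replicate 3 (-0.43, adjusted p = 0.0736), without p53KO_3dai replicate 3 (-0.75, 0.0540) and with only the groups compared (0.0570). Rpsa, the laminin receptor precursor and a ribosomal protein, rose by 1.07 (SE 0.19, adjusted p = 1.85e-04) and 0.94 (SE 0.19, adjusted p = 5.71e-04). Dag1 and Rpsa were named after their values were seen.

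Of 32 tested genes for focal adhesion proteins and integrin activators 10 rose and 9 fell in p53WT_3dai against p53WT, and 11 and 7 in p53KO. Their median log2 differences of 0.15 and 0.07 lay near those over all genes, and the 19 and 18 genes called of 32 are close to the 52.7% and 53.1% of all genes called in either direction. Parvb, a parvin that binds integrin-linked kinase, rose by 4.90 (SE 0.29, adjusted p = 3.79e-09) and 4.78 (SE 0.29, adjusted p = 4.84e-09), and it was also the largest rise in G2 (4.22, SE 0.32, adjusted p = 3.19e-07 and 3.97, SE 0.32, adjusted p = 4.74e-07). Parvb read 0, 0.575 and 0 FPKM in p53WT and 0.701, 0.126 and 0 in p53KO, so the size of these differences depends on the pseudocount. Tns3, a tensin, rose by 2.53 (SE 0.22, adjusted p = 2.76e-07) in p53WT, and Actn1, an alpha-actinin, by 2.94 (SE 0.25, adjusted p = 1.56e-07) in p53KO. Tln2, the talin typical of striated muscle, fell with log2 differences of -2.63 (SE 0.21, adjusted p = 7.99e-08) and -2.54 (SE 0.21, adjusted p = 1.04e-07), and Tns2, another tensin, with -2.60 (SE 0.33, adjusted p = 1.13e-05) and -3.05 (SE 0.33, adjusted p = 2.25e-06). In G2 against no suffix 11 rose and 3 fell in p53WT, and 10 and 3 in p53KO. In the 3 genotype comparisons 0 genes of each of these lists were called, where 0.00772%, 0.0849% and 0.0695% of all genes were.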

How the data were processed

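Per the submitters' processing notes the pipeline used STAR, Cufflinks and Cuffdiff with mm10, versions not given in the sources used here. Libraries were made from total RNA with a directional kit, per the labels. The deposited values are FPKM per gene, as computed by the authors, in 1 file per library with 24341 genes. The status was OK for all values of the members. Low FPKM did not fall on steps of whole reads, so counts and depth were not recovered, and the precision is known only from the spread between libraries.

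A single model with the 6 groups and no covariate was fitted to log2(FPKM + 1) with limma 3.58.1 in R 4.3.3, with a variance trend, over the 12954 genes that reached 1 FPKM in 2 or more of the 16 libraries. The shared fit assumes that the groups with 2 libraries vary like the others. The 9 pairwise comparisons and 2 interactions were each adjusted by Benjamini-Hochberg over the 12954 genes. Each interaction subtracts the p53KO effect with no suffix from the p53KO effect in 3dai or G2. The fit was tested on simulated data, where small changes had a larger share of false calls than the nominal level. The simulation changed far fewer genes than were called in 3dai against no suffix, and none of the weakly expressed ones. It therefore does not give the error rate of the reported calls.

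The members and all gene lists were chosen with earlier results of these data known. Named genes are the called members with the largest changes, up to 8 in each direction, Itga7 and Itgb1, and the 2 largest called changes in each direction of each pathway list. Other genes were named after their values were seen. The values of 1 member are not reported here, though the counts include it. Groups share replicate numbers, but over 22 pairs of same-numbered libraries the correlations of deviations from the group means ran from -0.159 to 0.127, and the numbers were not taken to pair samples. Alternatives were median-of-ratios scaling, 0.1 as pseudocount, array weights, keeping all genes above 0, keeping genes with a mean of at least 5 FPKM, the replicate block, only the groups compared and each library left out in turn. Leaving out p53KO_3dai replicates 2 and 3 together was added after the data had been seen.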

Additional observations from a re-analysis of the deposited data

How the results depend on the processing

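Under the alternatives 144 counts of called members were within 1.5 times the reported count and 7 were not. The latter were p53KO_3dai against p53WT_3dai, with 3 members in place of 0 under array weights and without p53KO_3dai replicate 1, and the filter at a mean of 5 FPKM, under which 15 members were tested. That filter left 12 of 22 calls in p53WT_3dai against p53WT, 13 of 20 in p53KO_3dai against p53KO and 3 of 6 in p53WT_G2 against p53WT. With p53KO_3dai replicates 2 and 3 left out, p53KO_G2 against p53KO_3dai had 5 calls, and without p53KO_3dai replicate 1 the interaction with 3dai had 1. Leaving out 1 library at a time gave 0 to 0 calls for the genotype with no suffix and in G2 and for the interaction with G2, 0 to 3 for the genotype in 3dai, 0 to 1 for the interaction with 3dai, 17 to 20 and 16 to 20 for 3dai against no suffix in p53WT and p53KO, 5 to 6 and 7 to 9 for G2 against no suffix, and 9 to 11 and 7 to 12 for G2 against 3dai. The replicate numbers were not shown to pair samples, and with the replicate block the counts were 0 for each genotype comparison and interaction, 22 and 21 for 3dai, 6 and 11 for G2, and 11 and 9 for G2 against 3dai.

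Of the log2 differences of named genes 17 turned in sign, none of them called except Itga5. Itgb1 in p53KO against p53WT turned to 0.039 under array weights and ran from -0.225 to 0.056 with 1 library left out, positive without p53WT replicate 2 or p53KO replicate 3. In p53KO_3dai against p53KO it turned to -0.28 under median-of-ratios scaling, ran from -0.079 (without p53KO replicate 3) to 0.15 with 1 library left out and was -0.14 with p53KO_3dai replicates 2 and 3 left out. In G2 against no suffix Itgb1 turned to -0.083 (p53WT) and -0.109 (p53KO) under median-of-ratios scaling. With those same 2 libraries left out, Itga7 and Itgb1 in p53KO_3dai against p53WT_3dai turned to -0.115 and -0.045 and Itga5 to 0.457 in p53KO_3dai against p53WT_3dai and to 0.22 in p53KO_3dai against p53KO. Dag1 in p53WT_3dai against p53WT ran from -0.248 to 0.099 with 1 library left out, positive without p53WT replicate 1 or 3 (0.024). Itga7 in p53KO_G2 against p53WT_G2 ran from -0.635 to 0.177 with 1 library left out, positive without p53WT_G2 replicate 2 or p53KO_G2 replicate 1, and in p53KO_G2 against p53KO_3dai from -0.255 (without p53KO_G2 replicate 2) to 0.556. A further 177 differences kept their sign and lost their call and 10 gained one. The cause was not tested. Depth is unknown, so the limit it sets on members under 1 FPKM cannot be given.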
